A study of Homo sapiens with 2 samples.

Results

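The genes of cholesterol and fatty acid synthesis were followed on 2 arrays of HT-29 cells, 1 from cells given control siRNA and 1 from cells given MYC siRNA. The set names 36 genes: 16 enzymes that build cholesterol, 5 regulators of the sterol regulatory element-binding proteins (SREBPs), 2 genes of sterol handling, and 13 enzymes that make, lengthen, desaturate or activate fatty acids. A gene was matched through probe sets that the platform annotation assigns to it alone, which held for 31 of the 36, out of 19775 genes so matched on the whole array. Of the 31, 28 had a signal above 50 in at least 1 array, the level below which the study's methods set signals to a floor; MVD, ELOVL5 and FADS2 did not. CYP51A1, ELOVL1 and FADS1 share their probe sets with another gene in the annotation and are not named from them, and FDFT1 and ACSL3 were not analysed here.

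HT-29 is a human colorectal adenocarcinoma line. Both cultures were grown in the same serum-containing medium and transfected with 20 nM siRNA for 24 h, and RNA was taken after 48 h; one received a pool of siRNAs against MYC, and the other a non-targeting pool, although its label gives the treatment as None. The comparison asks how transcripts changed when MYC, a transcription factor, was targeted. With 1 array per group no p-value can be given. Each gene is read from its brightest probe set (by the mean of both arrays) as the log2 of the MYC siRNA signal over the control signal, signals under 50 being set to 50, and where 1 array was at or under 50 the fold is a lower bound. In place of a replicate error, the SD of this ratio among probe sets that share a gene is given: 0.24 for dim genes (mean signal up to 259.7), 0.22 for genes up to 628.6, and 0.18 for brighter genes. It leaves out the variation between cultures.

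The signal of MYC itself was 1963 in the control array and 1640 in the MYC siRNA array, 1.20-fold lower, a log2 ratio of -0.26 from its single probe set. The paper describes a knockdown of MYC by siRNA in HT-29 cells from immunoblots. The arrays do not measure protein. Of 11 markers of colon epithelium, 8 were above 50, 2 of them lower with MYC siRNA, such as EPCAM at 5156 and 4512 in that order of arrays, and 6 higher, such as LGALS4 at 1771 and 3056 and KRT20 at 4973 and 7034, with a median log2 ratio of 0.17 for the list. In contrast, CDX1, CDX2 and GPA33 were not above 50 in either array; the summed signal of the list was 32650 and 36640. Leukocyte markers (0 of 4 above 50, summed signal 77.0 and 64.3), adipocyte markers (0 of 4, summed signal 5.50 and 4.0) and markers of fibroblasts and endothelium (1 of 6, summed signal 141 and 112) were not above 50 in either array apart from COL1A1, at 94.7 and 78.9. Of 4 hepatocyte markers 1 was above 50, SERPINA1, at 215 in the control array and 644 in the MYC siRNA array, and the list summed to 249.8 and 678; the part of these shifts in the results was not tested. In bulk RNA, fewer cells of a type and less RNA per cell cannot be told apart.

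Cholesterol and fatty acids are both built from cytosolic acetyl-CoA. The sterol branch runs through HMG-CoA, mevalonate, isoprenoid diphosphates, squalene and lanosterol to cholesterol, and the fatty acid branch through malonyl-CoA to palmitate, which is then lengthened, desaturated and coupled to coenzyme A. When sterols in the endoplasmic reticulum are low, SCAP escorts SREBP precursors to the Golgi for cleavage and the released factors switch on both branches; when sterols are high, INSIG proteins hold SCAP back. Rapidly dividing tumour cells, colon cancer lines among them, use both branches to make membrane, and MYC is a factor of growth and metabolism that binds DNA with MAX at E-boxes.

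The promoters of 6 of these genes are given because of the letters they hold or the ratio of their gene: INSIG1, SCAP and SC5D hold the E-box letters CACGTG, SREBF2 holds the sterol regulatory element letters TCACNCCAC, and DHCR7 and ACLY are the sterol and the fatty acid gene with the lowest ratio among those with a promoter at hand. Each is the 250 bases before the annotated start in RefSeq (GRCh38.p14), 5′ to 3′ on the strand of the gene, with E-box, sterol regulatory element and CCAAT box letters on either strand in capitals. They lie at chr7:155297628-155297877 on the plus strand, chr3:47475942-47476191 on the minus strand, chr11:121292521-121292770 on the plus strand, chr22:41832855-41833104 on the plus strand, chr11:71448394-71448643 on the minus strand and chr17:41919023-41919272 on the minus strand.
INSIG1: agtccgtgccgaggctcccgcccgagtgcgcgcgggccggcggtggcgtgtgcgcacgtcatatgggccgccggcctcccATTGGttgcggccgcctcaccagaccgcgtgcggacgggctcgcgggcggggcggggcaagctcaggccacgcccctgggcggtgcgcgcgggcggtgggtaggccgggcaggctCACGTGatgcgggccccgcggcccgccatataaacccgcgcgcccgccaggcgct
SCAP: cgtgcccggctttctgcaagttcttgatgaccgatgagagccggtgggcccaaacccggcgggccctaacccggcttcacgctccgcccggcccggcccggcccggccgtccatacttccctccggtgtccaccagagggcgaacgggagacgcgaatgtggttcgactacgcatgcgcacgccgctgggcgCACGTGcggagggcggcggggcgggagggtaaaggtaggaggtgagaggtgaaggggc
SC5D: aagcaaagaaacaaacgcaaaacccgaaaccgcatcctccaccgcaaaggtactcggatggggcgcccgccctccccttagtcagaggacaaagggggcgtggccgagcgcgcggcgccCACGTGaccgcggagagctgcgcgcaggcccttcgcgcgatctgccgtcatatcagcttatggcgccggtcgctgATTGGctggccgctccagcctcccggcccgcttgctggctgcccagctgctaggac
SREBF2: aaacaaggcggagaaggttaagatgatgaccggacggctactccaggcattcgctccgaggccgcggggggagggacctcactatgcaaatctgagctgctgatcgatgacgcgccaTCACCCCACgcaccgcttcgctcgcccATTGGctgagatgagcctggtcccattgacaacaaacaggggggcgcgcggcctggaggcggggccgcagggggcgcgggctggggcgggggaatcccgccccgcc
DHCR7: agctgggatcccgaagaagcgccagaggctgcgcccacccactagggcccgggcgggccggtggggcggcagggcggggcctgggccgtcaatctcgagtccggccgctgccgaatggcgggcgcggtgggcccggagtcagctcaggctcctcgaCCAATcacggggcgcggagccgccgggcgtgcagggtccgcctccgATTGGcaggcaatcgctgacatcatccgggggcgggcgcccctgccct
ACLY: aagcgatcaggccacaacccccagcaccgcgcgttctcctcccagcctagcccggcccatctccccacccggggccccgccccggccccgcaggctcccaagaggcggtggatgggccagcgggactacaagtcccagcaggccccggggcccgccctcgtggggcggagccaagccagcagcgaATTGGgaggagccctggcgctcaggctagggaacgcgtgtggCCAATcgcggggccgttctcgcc

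Motif letters were counted on both strands in windows from 250 bases before to 50 bases after each start. RefSeq windows were at hand for 32 of the genes, 48 windows in all, since some genes have several that can overlap; ACAT2, FDFT1, SQLE and FASN had no entry. The E-box CACGTG was in 6 of the 48 windows (12.5%), from 5 genes, against 7.26% of all 35116 windows. It starts 55 bases before the start of INSIG1, 58 before SCAP, 131 before SC5D and 211 before ELOVL5, and 41 bases after the start of LSS, outside the stretch shown for other genes. The sterol regulatory element TCACNCCAC was in 2 windows against 1.13% of all, at 133 bases before SREBF2 and in an alternative window of ACSL1. The CCAAT box CCAAT was in 28 of 48 windows (58.3%) against 34.6% of all, 13 of 18 among sterol enzymes and 11 of 22 among fatty acid enzymes. The GC box GGGCGG, not in capitals above, was in 38 of 48 (79.2%) against 45.0% of all, 16 of 18 among sterol enzymes and 14 of 22 among fatty acid enzymes. These are matches of letters and not measured binding.

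**Figure D1:**
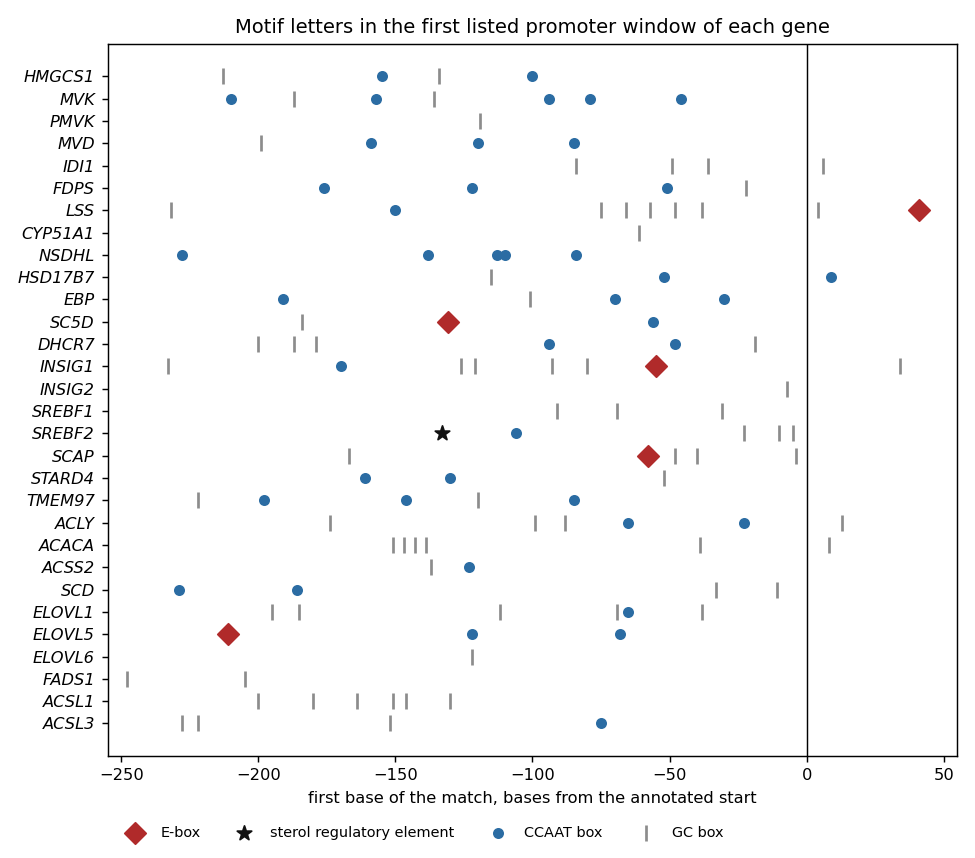
Position of each match in bases from the annotated start (x axis) in the first listed promoter window of 30 of the 32 genes (y axis); the other genes hold none of the motifs there. Diamonds are E-boxes, the star is the sterol regulatory element of SREBF2, circles are CCAAT boxes and ticks are GC boxes; E-boxes lie close before the start of INSIG1 and SCAP, at 55 and 58 bases.

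Of the 28 genes above 50, 19 were lower with MYC siRNA and 9 were higher, or 67.9% lower, where 46.5% of the 8917 genes above 50 on the array were lower and 53.5% were higher; after loess 20 were lower and 8 higher, with 50.2% of all genes lower. The median log2 ratio of the 28 was -0.21, beside 0.03 over all genes. At least 1.5-fold lower were FASN, DHCR7 and ACLY (10.7%, with 5.72% over all genes), and ACSS2 was at least 1.5-fold higher (3.57%, with 10.4% over all genes). FASN stayed past 1.5-fold under each alternative that gave it a value, whereas ACLY did not after quantile normalization (-0.53), loess (-0.54) or when its probe sets were averaged (-0.56) or summed (-0.58), nor DHCR7 when its probe sets were averaged (-0.4951) or summed (-0.4962). None reached the 2-fold change that the methods used, which 0.695% of all genes did downward and 2.73% upward. Beyond the SD between probe sets were 14 genes that were lower and 6 that were higher, where 25.3% and 31.5% of all genes lay so far down and up. The lower genes include SREBF1, above 50 in the control array alone. Among the higher are ACSS2, above 50 in the MYC siRNA array alone, and SREBF2, whose probe sets disagree in sign.

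**Figure D2:**
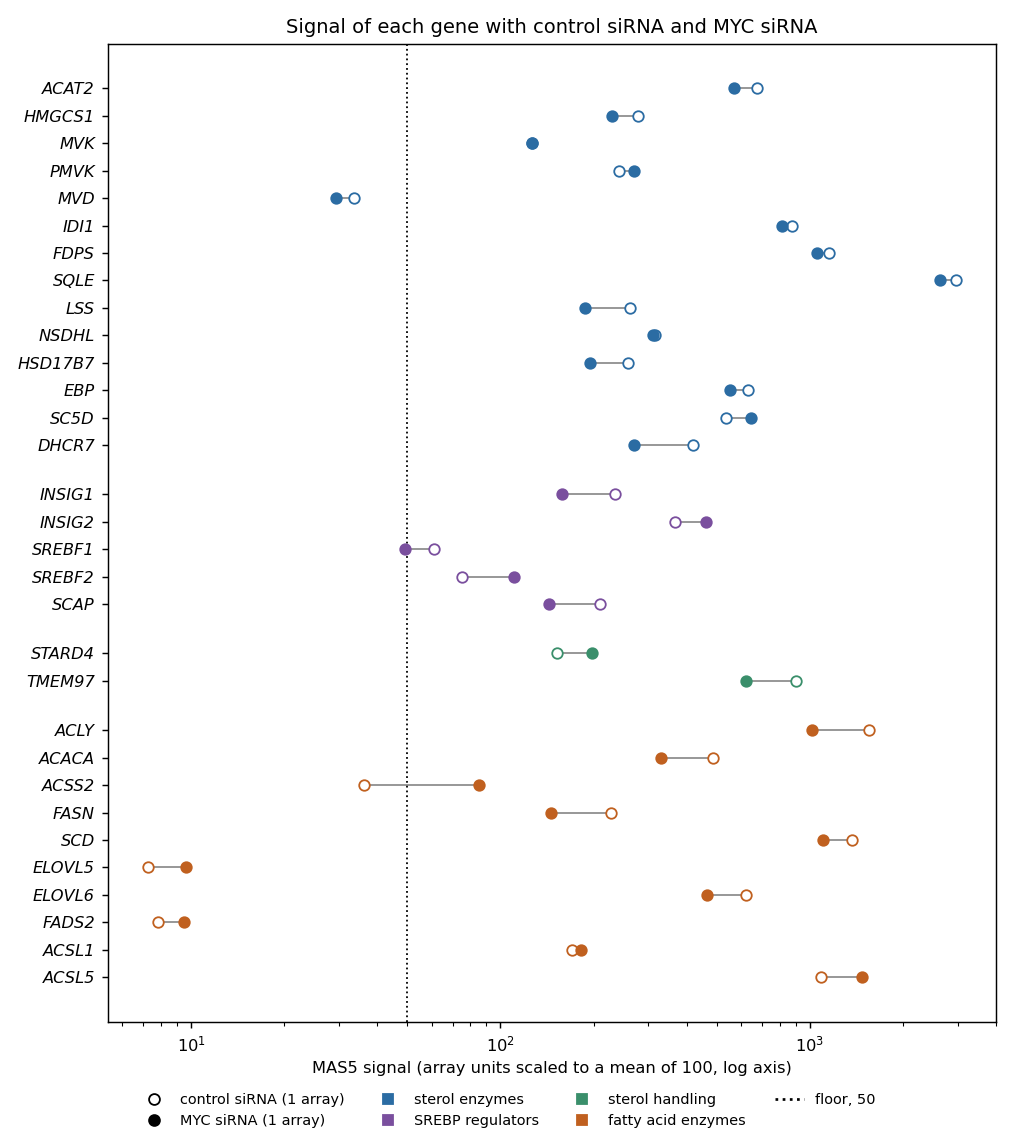
MAS5 signal (x axis, log scale) of the 31 matched genes (y axis), the control as open and MYC siRNA as filled circles, 1 array each. The dotted line is the floor of 50; MVD, ELOVL5 and FADS2 lie below it in both arrays, and the fatty acid enzymes from ACLY to SCD, apart from ACSS2, shift to the left.

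The sterol enzymes before squalene differed little between the arrays. ACAT2, which joins acetyl-CoA units to acetoacetyl-CoA, had a signal of 675 in the control array and 570.3 in the MYC siRNA array, a log2 ratio of -0.24 beside an SD of 0.22. HMGCS1, which makes HMG-CoA, had 278 and 229, 1.21-fold lower at a log2 ratio of -0.28, and its other probe set gave -0.39. Both were lower by little more than the SD.

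Mevalonate kinase, MVK, had 126 in both arrays, a log2 ratio of 0.00, and its other probe set gave 0.03. PMVK, the next kinase, had 242 in the control array and 269.8 in the MYC siRNA array, 1.12-fold higher. MVD, the decarboxylase of the pathway, had 33.6 and 29.4, so no ratio is given. The mevalonate kinases were thus within the SD of 0.24 in either direction.

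IDI1, which isomerises isopentenyl diphosphate, had 873 and 813, a log2 ratio of -0.10, with other probe sets at -0.05 and -0.02; each of them may bind further sequences by its design. FDPS, farnesyl diphosphate synthase, had 1149 and 1053, a log2 ratio of -0.13. Neither passed the SD of 0.18.

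From squalene onward the shifts were more varied. SQLE, the squalene epoxidase and a rate-limiting enzyme of the branch, had 2966 in the control array and 2642 in the MYC siRNA array, 1.12-fold lower at -0.17, just inside the SD of 0.18, while its other 3 probe sets gave -0.31 to -0.26. LSS, which closes the ring system to lanosterol, had 262 and 188, 1.395-fold lower at -0.48, the second largest drop among sterol enzymes.

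NSDHL, which takes part in removing the methyl groups of lanosterol, had 316 and 310.0, a log2 ratio of -0.03. HSD17B7, the ketoreductase of the same demethylation, had 258 and 195, 1.32-fold lower at -0.40, from a probe set that may bind further sequences. These neighbouring steps therefore differed in size, the first within and the second beyond its SD.

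The last steps held both extremes of the branch. EBP, the sterol isomerase, had 630 in the control array and 554 in the MYC siRNA array, a log2 ratio of -0.19 within its SD of 0.22, and -0.32 from the other probe set. SC5D, the sterol desaturase with the E-box shown above, had 534 and 645, 1.21-fold higher at 0.27. DHCR7, the reductase of the final step to cholesterol, had 418 and 271, 1.54-fold lower at -0.63, and its other probe set gave a smaller drop, -0.36. SC5D and DHCR7 act one after the other, and their ratios had opposite signs.

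Over the branch, 10 of the 13 sterol enzymes above 50 were lower (76.9%, with 46.5% over all genes) and 3 were higher, with a median log2 ratio of -0.17. After median centring, quantile normalization or loess 11 were lower and 2 higher, MVK changing sides, with 48.7% to 50.2% of all genes lower. The SD between probe sets over all genes, 0.21, divided by the root of the number of enzymes (n), was 0.06. This value leaves out the spread among the enzymes of a branch and that between cultures, so it is not an error of the median. Lower by more than the SD for their signal were 5 sterol enzymes, ACAT2, HMGCS1, LSS, HSD17B7 and DHCR7, and SC5D alone was higher by more than it. Of all genes, 25.3% were lower and 31.5% higher by more than the SD.

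**Figure D3:**
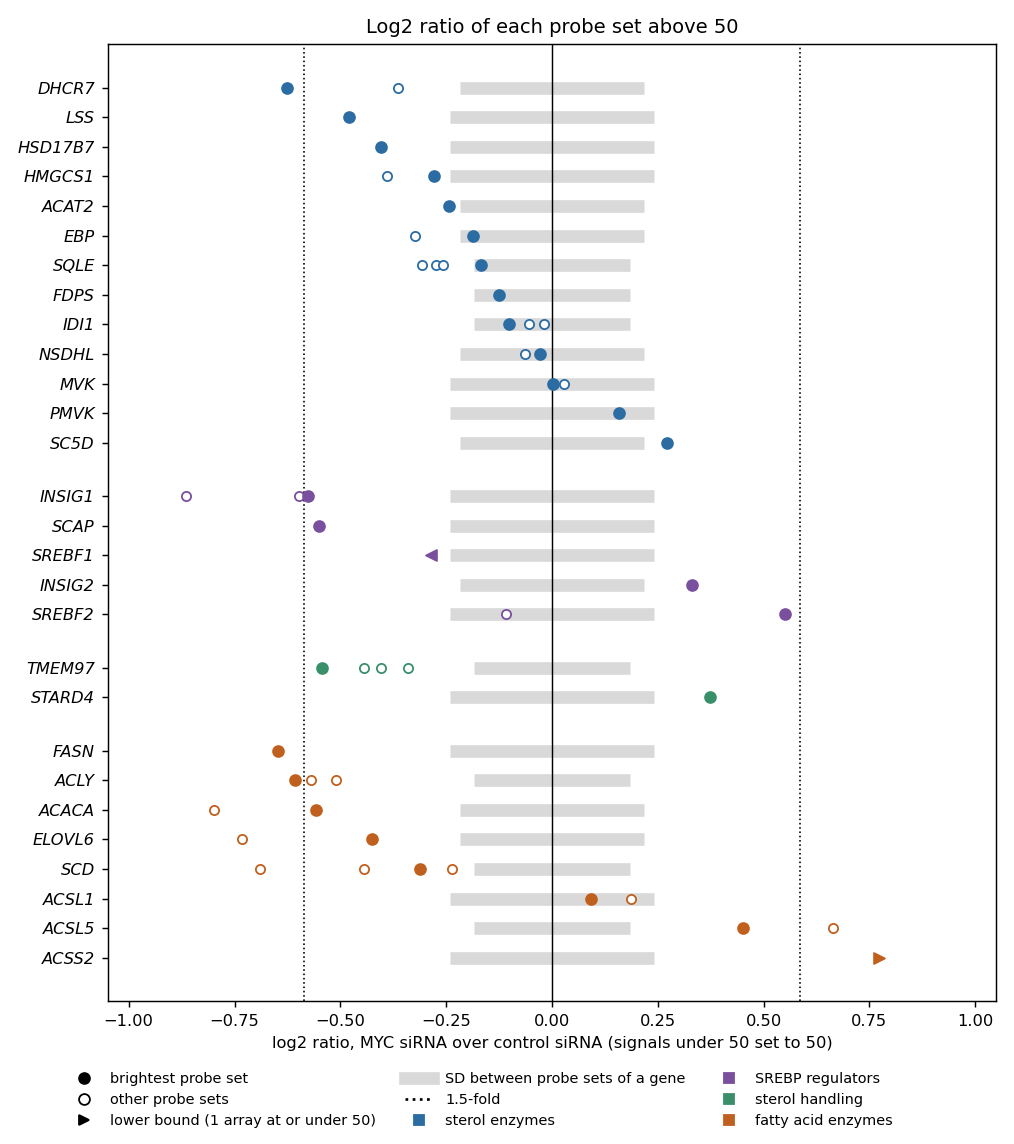
Log2 of the MYC siRNA signal over the control signal (x axis) for the 28 genes above 50 (y axis), with the brightest probe set filled, other probe sets above 50 open, lower bounds as triangles, the SD between probe sets as grey bars and 1.5-fold as dotted lines. The 3 INSIG1 probe sets lie from -0.86 to -0.58, the SREBF2 probe sets on both sides of 0, and FASN, ACLY, ACACA, ELOVL6 and SCD to the left of their grey bars.

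The regulators did not share a direction. INSIG1, the retention protein that is itself an SREBP target, had 235 in the control array and 157.5 in the MYC siRNA array, 1.49-fold lower at -0.58. Its other 2 probe sets went further in the same direction, to -0.60 and -0.86. INSIG2, its homologue, had 366 and 461, 1.26-fold higher at 0.33. The retention proteins thus had opposite signs, each beyond its SD.

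SCAP, the escort, had 210.1 and 143.5, 1.46-fold lower at -0.55. Of the 5 genes with E-box letters, INSIG1, SCAP and LSS were lower, SC5D was higher and ELOVL5 was not above 50. Genes without these letters in their windows also had both signs, such as DHCR7 at -0.63, ACLY at -0.61, INSIG2 at 0.33 and STARD4 at 0.37. MYC binding was not measured, and a link between the letters and the ratios was not tested.

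The SREBP genes were dim. SREBF1, whose products mainly drive fatty acid genes, had 61.0 in the control array and 49.3 in the MYC siRNA array, at least 1.22-fold lower, and it passed the level of 50 through the control array alone. SREBF2, whose product mainly drives sterol genes, had 75.3 and 110.3, a log2 ratio of 0.55, but its other probe set above 50 gave -0.11. No direction can be read for SREBF2, since its probe sets disagree in sign.

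Of the genes of sterol handling, TMEM97, a protein of the endoplasmic reticulum that binds sterols and the lysosomal transporter of cholesterol, had 904 in the control array and 621 in the MYC siRNA array, 1.46-fold lower at -0.54. All 4 of its probe sets were lower, the others at -0.44 to -0.34. STARD4, which carries cholesterol between membranes, had 153 and 198, 1.295-fold higher at 0.37. The SD was 0.18 for TMEM97 and 0.24 for STARD4, so both lay beyond it, in opposite directions.

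In the fatty acid branch the enzymes that build the chain were lower. ACLY, which splits citrate to cytosolic acetyl-CoA, had 1549 in the control array and 1017 in the MYC siRNA array, 1.52-fold lower at -0.61, and its other 2 probe sets gave -0.57 and -0.51. ACACA, the carboxylase that makes malonyl-CoA and commits carbon to fatty acids, had 487 and 331, 1.47-fold lower at -0.56, with -0.80 from the other probe set. FASN, the synthase that makes palmitate, had 227 and 145, 1.57-fold lower at -0.65, the lowest ratio of the 28 genes, from the only probe set of the gene above 50. These consecutive steps from citrate to palmitate were lower by more than the SD in every probe set above 50, of which there were 3, 2 and 1.

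ELOVL6, which lengthens palmitate, had 622 and 463, 1.34-fold lower at -0.42, and -0.73 from its other probe set. SCD, which puts the first double bond into saturated chains, had 1372 and 1105, 1.24-fold lower at -0.31, with other probe sets from -0.69 to -0.24. ELOVL5 had 7.26 and 9.61 and FADS2 had 7.79 and 9.47, so the elongase and the desaturase of polyunsaturated chains gave no ratio. ELOVL6 and SCD thus went the same way as the enzymes of synthesis.

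Of the enzymes of the set that attach coenzyme A, the 3 with a ratio lay on the other side of 0, and ACSL3 was not analysed. ACSS2, which makes acetyl-CoA from acetate and so feeds the same pool as ACLY, had 36.4 in the control array and 85.4 in the MYC siRNA array, at least 1.71-fold higher, having passed the level of 50 through the MYC siRNA array alone. ACSL5, a long-chain acyl-CoA synthetase abundant in intestine, had 1082 and 1478, 1.37-fold higher at 0.45, and 0.66 from its other probe set. ACSL1 had 170.3 and 182, a log2 ratio of 0.09 within its SD of 0.24, and 0.19 from its other probe set.

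Over the branch, 5 of the 8 fatty acid enzymes above 50 were lower (62.5%, with 46.5% over all genes) and 3 were higher, with a median log2 ratio of -0.37. The SD between probe sets over the root of n was 0.08, again without the spread among the enzymes. The division between chain building and coenzyme A attachment was noticed after the values were seen. All 5 lower genes and 2 of the 3 higher genes, ACSL5 and ACSS2, were beyond their SD. So were many genes of the array, 25.3% of all genes downward and 31.5% upward. The value of ACSS2 is a bound, from a gene above 50 in the MYC siRNA array alone.

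The median of the sterol enzymes was 0.20 above that of the fatty acid enzymes. The SDs between probe sets over the root of n combined to 0.10, which leaves out the spread among the genes of each branch. It is therefore not an error of the difference between the medians. The difference between the medians lay between 0.19 and 0.26 under every alternative processing tried, the fatty acid median always being the lower. Each alternative reused the same 2 arrays and compared medians alone. The fatty acid enzymes lay on both sides of 0, 5 lower and 3 higher, so the difference depends on the median being used. By the share of lower genes the order was the reverse, 76.9% of the sterol and 62.5% of the fatty acid enzymes. Which branch was the lower therefore depends on the measure. Genes of a branch are not replicates, and a second pair of cultures is not at hand. Both branches held genes near -0.6, DHCR7 in the sterol branch and FASN and ACLY in the other, and the branches overlapped over most of their range, from -0.63 to 0.27 for sterol enzymes and from -0.65 to 0.77 for fatty acid enzymes.

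**Figure D4:**
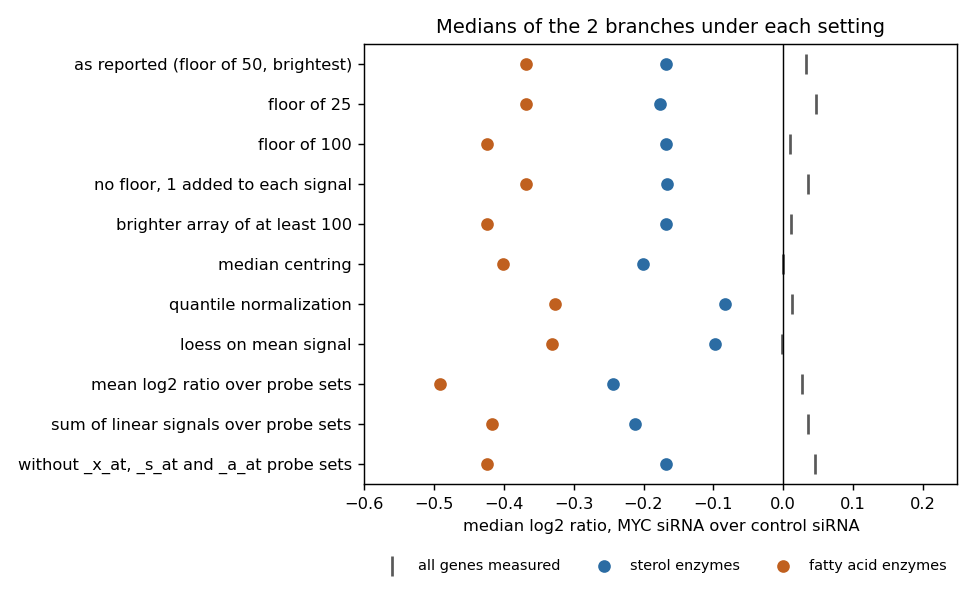
Median log2 ratio (x axis) of sterol enzymes in blue, fatty acid enzymes in orange and all genes measured as grey ticks under each processing setting (y axis). The sterol median lies between -0.24 and -0.08 and the fatty acid median between -0.49 and -0.33.

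Other genes of the same pathways, taken from lists written for this purpose, are given next. Beside their counts stand the 46.5% lower and 53.5% higher of all genes above 50. Of 6 further genes of sterol and isoprenoid synthesis above 50, 2 were lower and 4 were higher, with a median of 0.17. LBR, which as a sterol reductase acts on the products of lanosterol, had 1582 in the control array and 1114 in the MYC siRNA array, 1.42-fold lower at -0.51. TM7SF2, the other reductase of that step, had 39.4 and 144, at least 2.88-fold higher. The pair thus had opposite signs, and TM7SF2 passed the level of 50 through the MYC siRNA array alone. GGPS1, which makes geranylgeranyl diphosphate from farnesyl diphosphate, had a log2 ratio of 0.43 and 0.62 from its other probe set.

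Of 10 genes of SREBP processing above 50, 4 were lower and 6 were higher, with a median of 0.10. The proteases that cleave SREBPs, MBTPS1 and MBTPS2, had log2 ratios of 0.15 and 0.21, within the SD. The other probe set of MBTPS1, however, gave 0.48. ERLIN2, part of the complex that handles sterol-dependent degradation, had 129 and 229.8, a log2 ratio of 0.83, but 0.17 and 0.46 from its other probe sets. AUP1, which takes part in that degradation, had 668 and 461, 1.45-fold lower at -0.53.

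Of 10 genes of cholesterol uptake, egress and esterification above 50, 4 were lower and 6 were higher, with a median of 0.14. SCARB1, the receptor for high-density lipoprotein, had 744 in the control array and 408 in the MYC siRNA array, 1.82-fold lower at -0.87, and -0.90 from its other probe set. NPC2, which hands cholesterol out of lysosomes, had 375 and 637.5, 1.70-fold higher at 0.76, whereas its partner NPC1 had 214 and 183, a log2 ratio of -0.23 within its SD.

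Of 9 genes of fatty acid supply and NADPH above 50, 5 were lower and 4 were higher, with a median of -0.12. CS, the citrate synthase upstream of ACLY, had 1804 and 1226, 1.47-fold lower at -0.56. The citrate carrier SLC25A1 had 669 and 825, 1.23-fold higher at 0.30, and PGD, which makes NADPH, had 1257 and 1677, 1.33-fold higher at 0.42. The steps that deliver citrate to ACLY therefore did not share a sign.

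Of 10 further genes of elongation, desaturation and acyl activation above 50, 2 were lower and 8 were higher, with a median of 0.10 (3 lower and 7 higher after median centring). ELOVL7, another elongase, had 135 in the control array and 218 in the MYC siRNA array, 1.62-fold higher at 0.70, opposite to ELOVL6. TECR, the last enzyme of each elongation round, had 564 and 842, 1.49-fold higher at 0.58, also opposite to ELOVL6. ACSF2, an acyl-CoA synthetase, had 121 and 208, 1.73-fold higher at 0.79. The 2 lower genes of the list are acyl-CoA synthetases too, ACSL4 with 126.5 and 107.5 at -0.24, and ACSS1, named after its value was seen, with 57.0 and 41.7 at -0.19, a bound; both were within the SD.

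**Figure D5:**
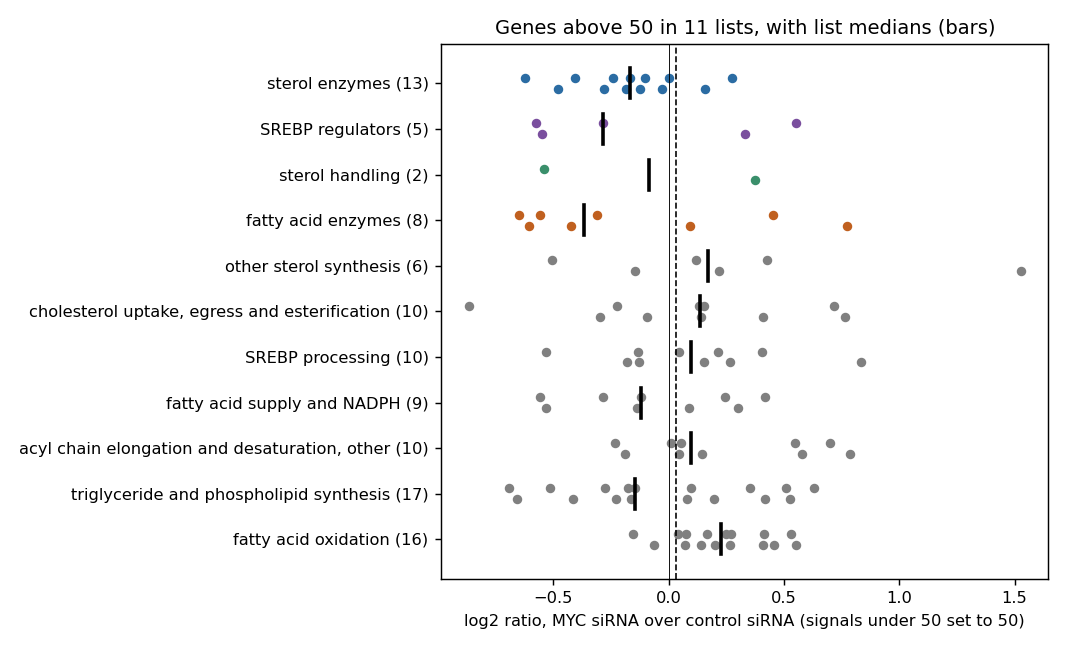
Log2 ratio of each gene above 50 (x axis) in the roles described here and in neighbouring lists (y axis, number of genes in brackets), with list medians as bars and the median of all genes, 0.03, as the dashed line. Fatty acid enzymes have the lowest median, -0.37, and fatty acid oxidation the highest, 0.23.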

How the data were processed

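Total RNA of the 2 cultures was hybridised to 2 Affymetrix arrays. Per the labels, the authors made the deposited intensity values with MAS5 in affy 1.40.0; they are linear signals of 54675 probe sets, scaled to a mean of 100, and the mean without the outer 2% at each end was checked as 100 in both arrays. Number of arrays, 1 per group, limits the precision. Of the probe sets, 41097 name 1 gene, 1801 several and 11777 none; genes were named only from the first.

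Signals under 50 were replaced by 50 and log2 ratios taken, as the methods do. Each gene is represented by its brightest probe set, by the mean of both arrays. No test was run. The SD between probe sets used 3604 genes with several above 50 in both arrays.

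Named are all members, MYC, markers, and from each neighbouring list up to 4 genes of largest ratio in each direction whose brighter array reached 100; MBTPS1 and ACSS1 were added after their values were seen. The members and lists were chosen with earlier results of these data known. Calculations were tested on simulated data. Alternatives were floors of 25 and 100, no floor with 1 added, a brighter array of at least 100, median centring, quantile normalization, loess (span 0.3), the mean log2 ratio or summed signal over probe sets, and leaving out probe sets that may bind several transcripts. Tools were Python 3.11.15, pandas 2.3.3, numpy 2.4.6, statsmodels 0.14.6, scipy 1.17.1 and matplotlib 3.10.9.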

Additional observations from a re-analysis of the deposited data

How the results depend on the processing

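The ratios of 27 of the 28 genes kept their sign or were 0 under each of the 10 alternatives that gave them a value. MVK, at 0.00, took the other sign in 4. The floors, scalings and brightness limit reuse the brightest probe set of a gene, so they say little about its sign. SREBF2 is among the 27 although its other probe set above 50 gave -0.11. The sterol median was -0.0825 after quantile normalization, -0.0979 after loess and -0.24 when log2 ratios were averaged over the probe sets of a gene, which also gave -0.49 for the fatty acid median. Genes at least 1.5-fold lower numbered 5 after median centring, 0 without probe sets that may bind several transcripts (17 genes left, FASN, DHCR7 and ACLY not among them) and 0 at 2-fold. Genes at least 1.5-fold higher numbered 0 with a floor of 100, a brighter array of at least 100, without those probe sets (ACSS2 was not among the genes left) and at 2-fold. SREBF2 ranged from 0.14 to 0.55 and ACSS2 from 0.61 to 1.23. No paired analysis was possible because each group has 1 array; leaving out a replicate was not possible for the same reason.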

Other observations

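Genes that burn fatty acids were mostly higher. Of 16 genes of fatty acid oxidation above 50, 14 were higher with MYC siRNA and 2 lower, where 53.5% of all genes above 50 were higher, and the median ratio was 0.23 (log2), between 0.18 and 0.23 under the scalings, brighter-array and floor of 100 settings and the mean over probe sets; 9 were higher by more than the SD between probe sets, as were 31.5% of all genes, and 0 were lower by more than it, as were 25.3% of all genes. ETFB, a subunit of the flavoprotein that takes electrons from acyl-CoA dehydrogenases, had a signal of 996 in the control array and 1459 in the MYC siRNA array, 1.465-fold higher at 0.55, whereas ETFA, its partner subunit, had 3254 and 2923, a log2 ratio of -0.15. ACADVL, the dehydrogenase of very long chains, had 339.5 and 490.2, 1.44-fold higher at 0.53. CPT1A, which commits acyl chains to mitochondria, had 416 and 555, 1.33-fold higher at 0.42, but its other probe sets gave -0.19 and 0.12.

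Genes of triglyceride and phospholipid synthesis were divided, with 9 lower and 8 higher of 17 above 50 and a median of -0.15. The acyltransferases of the first step were lower: GPAT3 had 548 in the control array and 347 in the MYC siRNA array, 1.58-fold lower at -0.66, and GPAM had 175 and 122, 1.43-fold lower at -0.52, with -0.23 from its other probe set. AGPAT5, of the second step, had 789 and 488, a log2 ratio of -0.69, but -0.09 from its other probe set. AGPAT1, of the same step, had 170 and 242, 1.42-fold higher at 0.51, and 0.86 from its other probe set. DGAT1, which completes the triglyceride, had 169.5 and 263, 1.55-fold higher at 0.63, and LPIN2, a phosphatidate phosphatase, had 331 and 476, 1.44-fold higher at 0.53.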
